A study of Mus musculus with 238 samples.

Results

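The transcripts described here encode 8 secreted peptides of the hypothalamus, chosen by name: Oxt, Avp, Crh, Trh, Ghrh, Hcrt, Pmch and Gal. They are 8 of the 21076 genes in the count table, and all 8 had a row. Bulk mRNA was sequenced from 15 dissected brain regions of C57BL/6JN mice aged 19 months, with liver from the mice of the dietary experiment, in 238 libraries. In the dietary experiment, 5 females were diet restricted (labelled aDR) and 4 females ate freely (AL). In the plasma experiment, 3 males received young mouse plasma (YMP) and 4 males received phosphate-buffered saline (PBS), both by injection behind the eye. Sex and experiment cannot be told apart, so each experiment was compared with its own control. Hypothalamus was represented by 4 AL, 4 aDR, 3 PBS and 3 YMP libraries, each from a different mouse and named below by the mouse number in the labels.

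Oxt (oxytocin) and Avp (vasopressin) are made by magnocellular neurons of the paraventricular and supraoptic nuclei, which release both peptides into the blood from the posterior pituitary, and Avp also by neurons of the suprachiasmatic nucleus. Crh, Trh and Ghrh encode releasing hormones, which reach the anterior pituitary through the portal vessels and drive the secretion of corticotropin, thyrotropin and growth hormone. Hcrt (orexin) and Pmch (melanin-concentrating hormone) mark separate but intermingled neurons of the lateral hypothalamus that regulate wakefulness, sleep and feeding. Gal (galanin) is a peptide of many hypothalamic and brainstem neurons. Each of these cell types occupies a small part of the hypothalamus.

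The hypothalamus libraries held 5.34 to 23.8 M counts (M, 1e6 counts). AL mouse 66 and PBS mouse 72 had the largest libraries, and the other 12 held up to 9.57 M. The 10 most abundant genes took 3.54% to 4.39% of the counts. Nkx2-1, a factor of the ventral hypothalamus, ran from 6.58 to 47.3 CPM (counts scaled to library size) in hypothalamus and had a median of 0 in the other brain libraries, so the tissue label fitted this marker in all 14 libraries. Nr5a1, the defining factor of the ventromedial nucleus, had a median of 20.3 CPM but lay at 0 in aDR mouse 62 and at 0.079 CPM in PBS mouse 72. Pituitary markers (9 genes) summed to at most 38.9 CPM in 13 libraries and to 1071 CPM in aDR mouse 67, mostly Prl at 843 CPM, and their part in the results was not tested. Bulk tissue does not separate fewer cells of a type from less RNA per cell.

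Oxt and Avp are neighbours on chromosome 2 (GRCm38), pointing towards each other. Oxt lies at chr2:130576173-130577054 on the plus strand and Avp at chr2:130580620-130582554 on the minus strand, with 3565 bases between them. The mature transcripts share an unbroken run of 127 bases within the coding sequence of exons 1 and 2 of 3, in the part that encodes the neurophysin carrier. Of all stretches of 50 bases, 16% of those in the Oxt transcript and 14.8% of those in the Avp transcript are found in the other, so reads from there could be assigned to either gene or dropped, and both levels carry that uncertainty. The shared run, from the GENCODE M21 transcripts, is shown because it sets that limit.
Shared run of Oxt and Avp: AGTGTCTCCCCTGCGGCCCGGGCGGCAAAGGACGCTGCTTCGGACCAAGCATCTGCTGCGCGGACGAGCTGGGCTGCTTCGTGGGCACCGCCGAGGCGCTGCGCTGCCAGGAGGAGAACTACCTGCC

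The 4 genes that varied most between mice are shown with the 250 bases before their RefSeq start sites (GRCm38.p6), read along the strand of the gene, because they moved in pairs from library to library. Capitals mark matches, on either strand, to 3 motifs searched, which do not overlap in these windows. The TATA box was searched as TATAAA, which 12.4% of 32851 mouse promoter windows of the same length held. The nuclear receptor unit was searched as AGGTCA, held by 14% of those windows. The cAMP response unit was searched as TGACG, held by 17.8% of them.
Oxt, chr2:130575919-130576168, plus strand: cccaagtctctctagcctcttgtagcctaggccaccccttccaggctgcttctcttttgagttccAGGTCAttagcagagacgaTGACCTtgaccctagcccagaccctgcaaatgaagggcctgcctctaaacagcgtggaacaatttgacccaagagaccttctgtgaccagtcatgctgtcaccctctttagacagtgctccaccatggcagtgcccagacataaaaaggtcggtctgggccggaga
Avp, chr2:130582589-130582838, minus strand: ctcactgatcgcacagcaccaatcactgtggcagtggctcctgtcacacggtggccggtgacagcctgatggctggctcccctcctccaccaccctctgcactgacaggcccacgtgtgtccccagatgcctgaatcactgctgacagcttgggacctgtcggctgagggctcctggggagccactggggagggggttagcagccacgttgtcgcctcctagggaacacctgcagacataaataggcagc
Hcrt, chr11:100762932-100763181, minus strand: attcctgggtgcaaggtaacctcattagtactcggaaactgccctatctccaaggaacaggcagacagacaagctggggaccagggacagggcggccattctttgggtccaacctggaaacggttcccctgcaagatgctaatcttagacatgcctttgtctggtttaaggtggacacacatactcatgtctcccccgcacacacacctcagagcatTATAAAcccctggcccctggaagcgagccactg
Pmch, chr10:88090822-88091071, plus strand: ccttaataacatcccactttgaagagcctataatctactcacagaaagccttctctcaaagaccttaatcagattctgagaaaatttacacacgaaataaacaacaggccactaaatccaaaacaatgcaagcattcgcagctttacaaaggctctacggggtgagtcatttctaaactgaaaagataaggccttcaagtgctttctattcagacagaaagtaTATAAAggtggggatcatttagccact
The Oxt window held 2 AGGTCA units, at positions -185 to -180 and -166 to -161 from the start site. The Hcrt and Pmch windows each held TATAAA, at -33 to -28 and -27 to -22. None of the 3 motifs was in the Avp window. A match of letters is a description and not a measured site.

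Per kilobase of exon, Pmch was the most abundant of the 8 in hypothalamus, with a median of 1153 CPM per kilobase over the 14 libraries. Hcrt followed at 304, Oxt at 193, Gal at 123 and Avp at 115 CPM per kilobase. Trh had a median of 63.0, Ghrh of 11.5 and Crh of 3.79 CPM per kilobase. The libraries of neighbours in this order overlapped throughout. Oxt ran from 0.371 to 1910 CPM per kilobase and Hcrt from 0.211 to 1237. Gal kept within 26.7 to 201 CPM per kilobase.

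The spread between mice of the same group was the widest feature of these transcripts. The standard deviation of log2 CPM within groups was 3.36 for Avp, 3.16 for Oxt, 2.59 for both Hcrt and Pmch, and 1.53 for Trh. It was 1.16 for Crh, 0.90 for Ghrh and 0.88 for Gal, against a median of 0.18 over 14032 genes. Only 2 of those genes had a larger value than Avp and only 9 a larger value than Pmch, while 347 had a larger value than Gal. All 8 passed the filter on low counts in both hypothalamus comparisons.

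**Figure D1:**
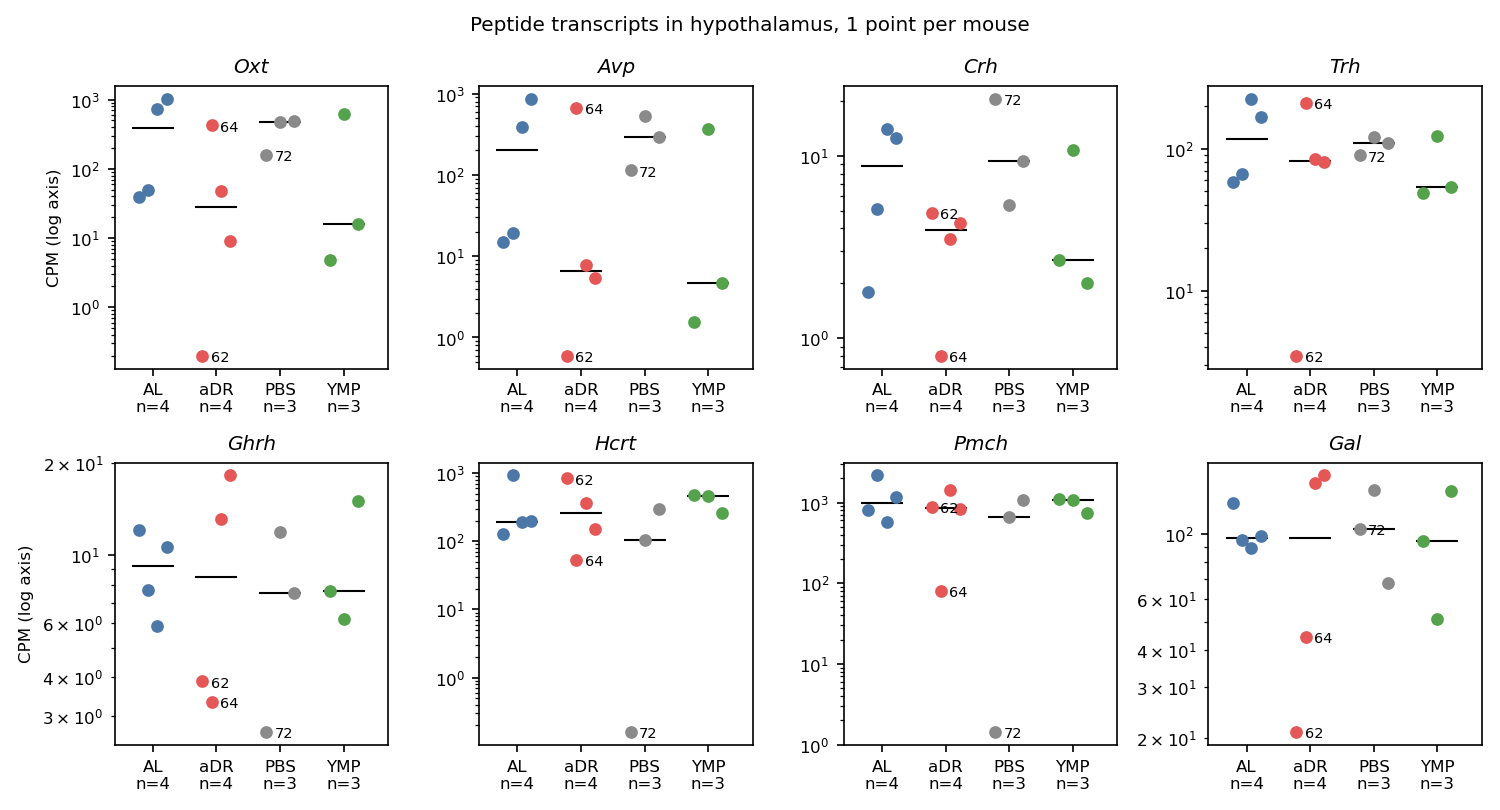
CPM of the 8 peptide transcripts in hypothalamus on log axes, with 1 point per mouse in the AL (n = 4), aDR (n = 4), PBS (n = 3) and YMP (n = 3) groups and a line at each group's median. Mice 62, 64 and 72 are numbered: Oxt lay at 0.199 CPM in aDR mouse 62 and at 425 in aDR mouse 64, and Hcrt lay at 0.158 CPM in PBS mouse 72.

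Oxt in the AL mice was 39.6, 49.2, 738 and 1026 CPM (mice 63, 66, 68 and 69). In the aDR mice it was 0.199, 425, 47.2 and 9.07 CPM (mice 62, 64, 65 and 67). Both groups held low and high libraries and overlapped, with the lowest value, 2 counts in the library, in aDR mouse 62. The fitted difference between aDR and AL was -1.94 on the log2 scale (SE 1.46, 95% confidence interval -5.18 to 1.31), with an adjusted p of 0.986 in edgeR's quasi-likelihood test. Oxt in the PBS mice was 158, 467 and 488 CPM (mice 72, 80 and 84). In the YMP mice it was 4.81, 618 and 15.8 CPM (mice 73, 77 and 81), so that 2 YMP libraries lay below all PBS libraries and the other lay above them. The YMP minus PBS difference was -0.81 (SE 1.36, interval -3.98 to 2.36, edgeR adjusted p 0.998).

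Avp followed the same libraries. It was 14.8, 19.3, 388 and 863 CPM in the AL mice and 0.597, 662, 7.76 and 5.35 CPM in the aDR mice, in the same order of mice. Of the aDR libraries 3 lay below all AL libraries and aDR mouse 64 was within the AL range, so the groups overlapped. The difference was -0.92 (SE 1.68, interval -4.65 to 2.81, edgeR adjusted p 0.986). In the PBS mice Avp was 114, 531 and 295 CPM, and in the YMP mice 1.56, 372 and 4.72 CPM. Again 2 YMP libraries lay below all PBS libraries and YMP mouse 77 was among them, with a difference of -1.32 (SE 1.46, interval -4.70 to 2.07, edgeR adjusted p 0.998). These fits rested on single mice: without aDR mouse 64 the diet difference became -4.65 for Oxt and -6.18 for Avp (edgeR adjusted p 0.999 for both), and without YMP mouse 77 the plasma difference became -5.17 and -6.64 (edgeR adjusted p 0.382 for both).

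Crh, the releasing hormone of the stress axis, was 1.79, 5.13, 13.9 and 12.6 CPM in the AL mice. It was 4.88, 0.805, 3.50 and 4.30 CPM in the aDR mice. All 4 aDR libraries lay below 3 of the 4 AL libraries, and AL mouse 63 fell inside the aDR range. The difference was -1.26 (SE 0.61, interval -2.62 to 0.09), with an unadjusted p of 0.0644 and an adjusted p of 0.986 in edgeR's test. In the PBS mice Crh was 20.5, 5.39 and 9.34 CPM and in the YMP mice 2.69, 10.7 and 2.02 CPM. YMP mouse 77 lay inside the PBS range and the other 2 below it, with a difference of -1.21 (SE 0.68, interval -2.78 to 0.37, edgeR adjusted p 0.998).

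Trh, which drives the thyroid axis, was 58.2, 66.6, 225 and 169 CPM in the AL mice. The aDR mice gave 3.48, 209, 84.6 and 80.2 CPM. Apart from aDR mouse 62, the aDR libraries were inside the AL range. The difference was -0.44 (SE 0.79, interval -2.20 to 1.32, edgeR adjusted p 0.986), and it was -0.03 without aDR mouse 62. Trh was 89.8, 122 and 110 CPM in the PBS mice and 48.9, 124 and 54.1 CPM in the YMP mice, where mice 73 and 81 were below all PBS libraries. The plasma difference was -0.51 (SE 0.34, interval -1.29 to 0.27, edgeR adjusted p 0.998).

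Ghrh, the growth hormone releasing hormone of arcuate neurons, was 12.1, 7.73, 5.86 and 10.7 CPM in the AL mice. In the aDR mice it was 3.88, 3.33, 13.1 and 18.3 CPM, with 2 libraries below and 2 above the whole AL range. The difference was 0.10 (SE 0.50, interval -1.02 to 1.22, edgeR adjusted p 0.993). Ghrh was 2.65, 12.0 and 7.53 CPM in the PBS mice and 7.63, 6.22 and 15.1 CPM in the YMP mice, which overlapped. The plasma difference was 0.41 (SE 0.56, interval -0.89 to 1.71, edgeR adjusted p 0.998).

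Hcrt was 127, 926, 189 and 200 CPM in the AL mice. In the aDR mice it was 836, 53.6, 367 and 152 CPM. AL mouse 66 and aDR mouse 62 were high in their groups, and the groups overlapped, with a difference of -0.03 (SE 0.80, interval -1.81 to 1.75, edgeR adjusted p 0.999). In the PBS mice Hcrt was 0.158, 104 and 294 CPM, where the lowest value was 4 counts in the 23.8 M of mouse 72. In the YMP mice it was 477, 460 and 256 CPM, and only PBS mouse 84 reached that range. The plasma difference was 1.59 (SE 1.31, interval -1.45 to 4.64, edgeR adjusted p 0.998), and 0.99 (SE 0.43, edgeR adjusted p 0.561) without PBS mouse 72.

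Pmch was 818, 2172, 568 and 1166 CPM in the AL mice and 890, 80.9, 1438 and 838 CPM in the aDR mice. The groups overlapped, with aDR mouse 64 below the rest. The difference was -0.53 (SE 0.66, interval -2.0 to 0.94, edgeR adjusted p 0.986). In the PBS mice Pmch was 1.42, 663 and 1067 CPM and in the YMP mice 1096, 1083 and 743 CPM. PBS mouse 72 was again the low library, and the difference of 0.74 (SE 1.33, interval -2.36 to 3.84, edgeR adjusted p 0.998) was 0.16 (SE 0.22) without it.

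The Pmch values include a counting limit. Parpbp lies on the opposite strand and overlaps 944 bases of Pmch, and the libraries do not mark strand. Parpbp had a median of 430 CPM in hypothalamus and 0.559 CPM in the other brain libraries. In the 13 libraries with at least 100 Pmch counts, Parpbp counts were 48.0% to 57.2% of the Pmch counts, and both were low in the same mice, at 1.66 CPM for Parpbp in PBS mouse 72 and 40.2 CPM in aDR mouse 64. Across the 14 libraries the log2 levels of the pair had a Pearson r of 0.998, a description of points that can share reads. Reads of the pair cannot be told apart.

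Gal kept closest to a single level in the AL mice, at 128, 95.1, 89.3 and 98.7 CPM. The aDR mice gave 21, 44.5, 150 and 159 CPM, with mice 62 and 64 below and mice 65 and 67 above the AL range. The difference was -0.13 (SE 0.51, interval -1.26 to 1.01, edgeR adjusted p 0.992). Gal was 104, 142 and 68.1 CPM in the PBS mice and 95, 51.3 and 140 CPM in the YMP mice. These overlapped, with a difference of -0.15 (SE 0.37, interval -1.01 to 0.72, edgeR adjusted p 0.998).

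**Figure D2:**
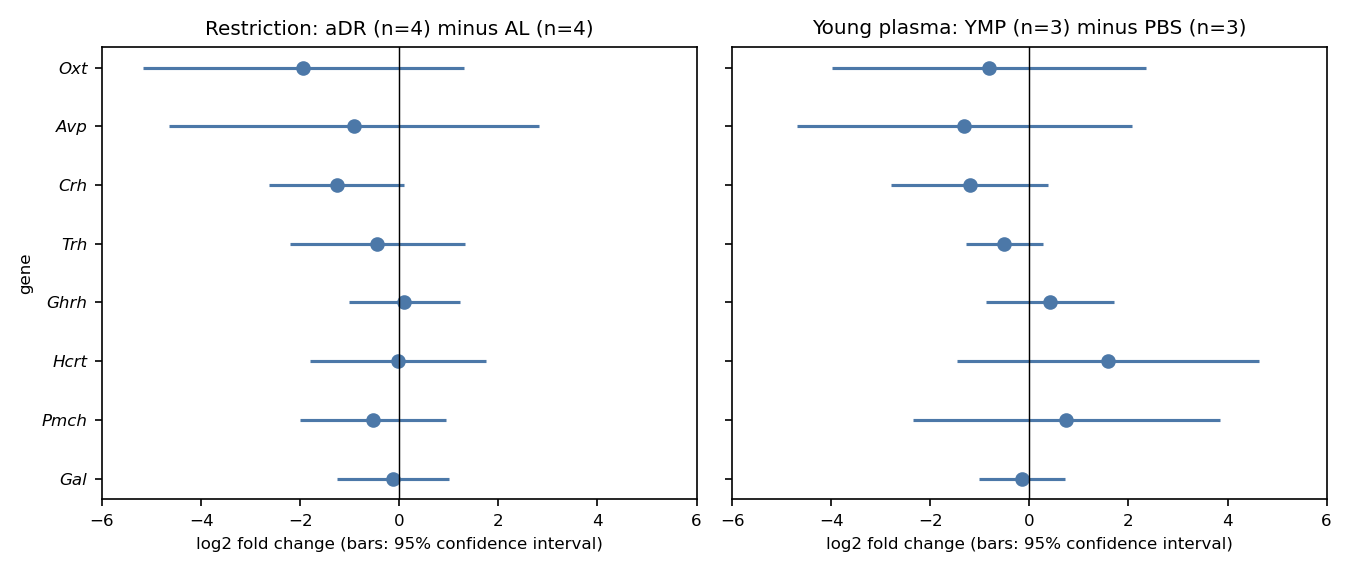
Log2 fold changes of the 8 transcripts in hypothalamus, aDR minus AL on the left and YMP minus PBS on the right, with bars for the 95% confidence interval from edgeR's quasi-likelihood fit. Every interval includes 0, and the diet intervals are widest for Avp (-4.65 to 2.81) and Oxt (-5.18 to 1.31).

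Of the 8 transcripts, 0 passed an adjusted p of 0.05 in either comparison, with a background of 0% called among 13804 genes for diet and 0% among 13776 genes for plasma. At an unadjusted p under 0.05, edgeR's test marked 639 genes for diet and 600 for plasma, with 0 of the 8 among them. DESeq2 called 11 genes for diet and 33 for plasma. The groups were apart without overlap for 0 of the 8 in both comparisons, against 3.31% of genes for diet and 9.44% for plasma. For diet, 7 of the 8 had a negative fitted difference, with a median of -0.49 against 0.01 over all genes tested. For plasma 5 were negative, with a median of -0.33 against -0.01. Some of the 8 varied together between mice, as given below, so these counts are not of independent genes. Leaving out single mice changed the sign of Avp, Ghrh, Hcrt and Gal for diet and of Ghrh and Gal for plasma. A p above the threshold does not show equal levels, and every interval of the 8 included 0.

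The diet effect and the plasma effect were also compared directly. The test of their difference called 0 of 14205 genes (740 at an unadjusted p under 0.05), which is 0%. The largest differences among the 8 were -1.62 for Hcrt (SE 1.64, edgeR adjusted p 0.974) and -1.27 for Pmch (SE 1.56, edgeR adjusted p 0.974). Between the 2 control groups, PBS males minus AL females, 6 of 13723 genes passed (0.0437%) and none of the 8 did. The widest of the 8 was Hcrt at -1.44 (SE 1.28, edgeR adjusted p 1.0), and Gal was at 0.05 (SE 0.23).

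The variation between mice ran in sets of peptides. Of the 28 pairs of the 8 transcripts, 5 were correlated over the 14 libraries after the group means were removed (permutation test of Pearson's r with 100000 resamples, two-sided, Benjamini-Hochberg adjustment over 28 pairs). All 5 were positive. Oxt and Avp had r = 0.957 and rho = 0.982 (permutation p 1e-05, the smallest these resamples give, adjusted p 9.33e-05). Their transcripts share a run of bases, so reads from there could be assigned to either gene. The part of such reads in the relation of Oxt and Avp, here and below, was not tested. Oxt and Trh had r = 0.887 and rho = 0.925 (adjusted permutation p 9.33e-05), and Avp and Trh had r = 0.778 and rho = 0.899 (adjusted permutation p 0.00252). The magnocellular pair and Trh were therefore high and low in the same mice.

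The lateral hypothalamic pair varied together as well. Hcrt and Pmch had r = 0.958 and rho = 0.912 (permutation p 1e-05, adjusted p 9.33e-05). Ghrh and Gal had r = 0.761 and rho = 0.780 (permutation p 0.00117, adjusted p 0.00655). Other pairs did not pass, which does not show that they were unrelated. Oxt and Hcrt had r = -0.134 (adjusted permutation p 0.890), and Avp and Pmch had r = -0.134 (adjusted permutation p 0.890). Ghrh and Pmch had r = 0.622 (permutation p 0.0118, adjusted p 0.0553), and r = 0.642 (adjusted permutation p 0.0263) without removal of the group means. Crh was in no called pair, with r from -0.223 with Ghrh to 0.132 with Avp. This depended on few libraries. Without the 2 farthest from the median of Oxt, Oxt and Crh had r = 0.687 (adjusted permutation p 0.0673). Their rho was then 0.734 (adjusted permutation p 0.0412).

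The 5 relations were computed again without the libraries that stood apart, and all 5 stayed past the threshold. Without the 2 libraries farthest from the median of the first gene, r was 0.955 for Oxt and Avp, 0.852 for Hcrt and Pmch, 0.836 for Oxt and Trh, 0.726 for Avp and Trh, and 0.813 for Ghrh and Gal. Without aDR mouse 62 and PBS mouse 72, a choice made after seeing the data, the 5 values were 0.973, 0.834, 0.927, 0.942 and 0.927 in that order. A further pair then passed, with a negative sign: Avp and Gal had r = -0.729 (adjusted permutation p 0.0374). A gap separated the 7 libraries lower in Oxt (0.199 to 49.2 CPM) from the 7 upper ones (158 to 1026 CPM), and the same libraries lay apart in Avp (0.597 to 19.3 and 114 to 863 CPM). Within the 7 lower libraries Oxt and Avp had r = 0.938, and within the 7 upper ones r = 0.809. Both values describe genes that can share reads.

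Within experiments, values minus their group means were permuted in every order, which is what exact means here. Centred values are not fully exchangeable between groups, so these p and those over the 14 libraries are approximate. Oxt and Avp had r = 0.943 in the 8 dietary libraries (exact adjusted p 0.00799) and r = 0.993 in the 6 plasma libraries (exact adjusted p 0.0194). Hcrt and Pmch had r = 0.797 (exact adjusted p 0.0807) and r = 0.996 (exact adjusted p 0.0194). Avp and Trh had r = 0.811 (exact adjusted p 0.0743) and r = 0.996 (exact adjusted p 0.0194). Oxt and Trh had r = 0.932 (exact adjusted p 0.00799) and r = 0.986 (exact adjusted p 0.0194). In the dietary libraries Avp and Pmch had r = -0.742 (exact adjusted p 0.133) and Trh and Hcrt r = -0.713 (exact adjusted p 0.166), which did not pass. Ghrh and Gal had r = 0.893 (exact adjusted p 0.0225) in the dietary libraries and r = 0.492 (exact adjusted p 0.564) in the plasma libraries.

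**Figure D3:**
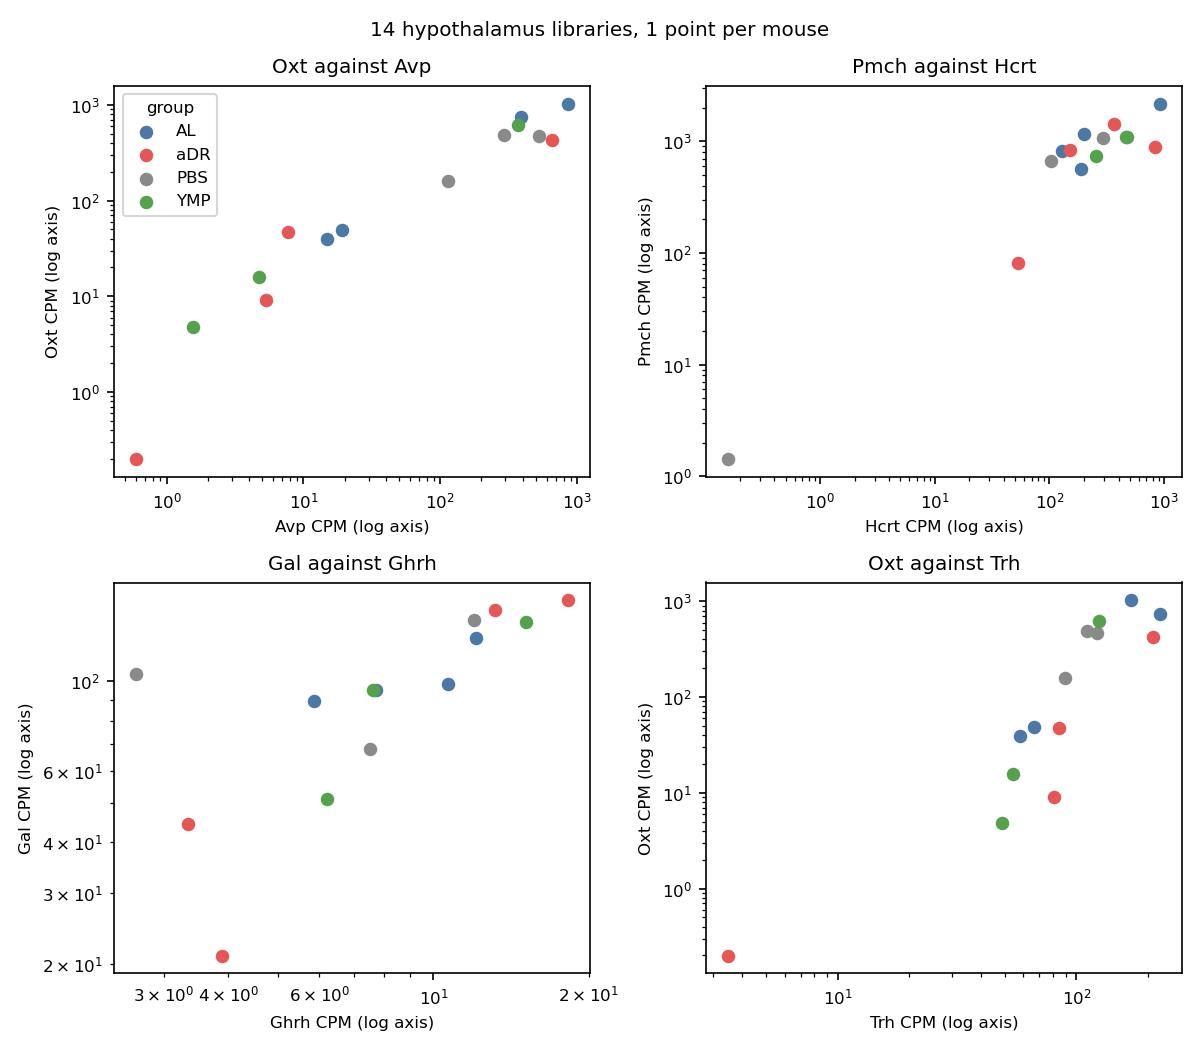
CPM of Oxt against Avp, Pmch against Hcrt, Gal against Ghrh and Oxt against Trh in the 14 hypothalamus libraries, on log axes with 1 point per mouse and colour for the group. The Oxt and Avp points form a rising line (r = 0.957), PBS mouse 72 and aDR mouse 64 are the 2 lowest in the Pmch panel, and Oxt rises with Trh (r = 0.887). Oxt and Avp can share reads.

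Markers of hypothalamic zones differed in how they ran with Oxt and Avp. Over 12 zone markers, r with Oxt ran from -0.936 for Barhl1 to 0.923 for Six3, and r with Avp from -0.982 for Barhl1 to 0.884 for Six3. Lhx1 (0.057) and Sox14 (0.146) were near 0 with Oxt. These are descriptions over libraries that share each library's dissection. Barhl1 is a factor of the mammillary and subthalamic side of the hypothalamus, and Six3 is a factor of the anterior forebrain. Both were singled out after their values were seen.

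Barhl1 was 1.96, 2.43, 0 and 0 CPM in the AL mice (63, 66, 68 and 69) and 7.17, 0, 2.25 and 1.98 CPM in the aDR mice (62, 64, 65 and 67). It was 0.119, 0 and 0 CPM in the PBS mice and 2.97, 0 and 2.43 CPM in the YMP mice. Barhl1 was above 1 CPM in 3 of 4 aDR and 2 of 4 AL libraries, and in 2 of 3 YMP and 0 of 3 PBS libraries. These were the same libraries as the 7 lower in Oxt, so the counts by group repeat that split. The part of Barhl1 in the fitted differences of Oxt, Avp and Trh was not tested.

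The sums of 9 thalamus markers were 920 to 1461 CPM in the YMP libraries and 519 to 801 CPM in PBS, without overlap, beside 695 to 801 CPM in AL and 628 to 968 CPM in aDR. YMP and PBS sums were also apart for hypothalamic zone markers (77.3 to 125 against 154 to 195 CPM) and striatum markers (293 to 308 against 335 to 340 CPM). The same held for peptide processing genes (6764 to 7174 against 5860 to 6196 CPM), while the other lists overlapped. Among single genes, 9.44% had YMP and PBS apart in hypothalamus. The part of these sums in the plasma comparison was not tested.

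The 12 transcription factors of the neurosecretory lineage had r with Oxt from -0.518 (Gsx1) to 0.866 (Otp). Otp, which with Sim1 specifies the paraventricular and supraoptic neurons, stood at the upper end, and Sim1 had r = 0.718. Pou3f2, also a factor of those neurons, had r = 0.415 and Arnt2 r = -0.098, while Dlx1, a factor of GABA neurons, had r = 0.858. Ghrh was closest to Rax at r = 0.930 among the zone markers and to Bsx at r = 0.822 among the lineage factors. Gal went with Sox14 at r = 0.877 and Hmx3 at r = 0.874. Hcrt and Pmch had no partner above 0.708 in the zone list. The 12 lineage factors showed no called change in hypothalamus, with 5 of 12 higher for diet and 5 of 11 tested for plasma.

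The genes most like each peptide over the 14 libraries, among 14031 others and after removal of group means, were in part the peptides themselves. Avp (r = 0.957) was nearest to Oxt, and Oxt and Pkib (0.944) to Avp. Cadm1 (0.923) and Rab3b (0.920) were nearest to Trh, and Vps25 (0.909) and Nr2c2ap (0.908) to Crh. Ghrh was nearest to Gnb3 (0.968) and to Agrp (0.965), a hunger peptide of the arcuate nucleus that ran from 0.975 to 65.0 CPM. Chsy1 (0.965) and Sstr5 (0.944) were nearest to Gal. Over 16 tissues in control mice the nearest genes were Hcrt (0.997) for Oxt, Npvf (0.998) for Hcrt, and Nkx2-4 (0.971) for Ghrh, where 1 tissue sets most of the value.

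The receptors of these peptides, with the Crh binding protein and the enzyme that degrades Trh, gave 11 tested genes of 17 in each hypothalamus comparison. For diet 5 were higher and 6 lower, 0 passed, and the median was -0.06. Avpr1a, a vasopressin receptor, was at 0.40 (SE 0.25) and Galr1, a galanin receptor, at -0.27 (SE 0.25), both with an edgeR adjusted p of 0.986. For plasma 5 were higher and 6 lower, again 0 passed, and the median was -0.18. Crhbp, which binds and buffers Crh, was at 1.33 (SE 0.28, edgeR adjusted p 0.900), and Trhde, the Trh-degrading enzyme, at -0.64 (SE 0.23, edgeR adjusted p 0.998).

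Genes for peptide processing and dense-core granules (15 of 15 tested) did not pass either. For diet 6 were higher and 9 lower, with Chga, a granule protein, at -0.26 (SE 0.10, edgeR adjusted p 0.986) and Cpe, a carboxypeptidase that trims peptide precursors, at 0.34 (SE 0.15, edgeR adjusted p 0.986). For plasma 8 were higher and 7 lower, with Cadps2, which primes granule release, at -0.97 (SE 0.16, edgeR adjusted p 0.604) and Cpe at 0.36 (SE 0.09, edgeR adjusted p 0.955). Of 10 glucocorticoid response genes, 10 were higher for diet in hypothalamus and 0 passed, with a median of 0.54. Tsc22d3 was at 0.58 for diet (SE 0.11, edgeR adjusted p 0.702). For plasma 6 of the 10 were higher and 4 lower, 0 passed, and the median was 0.26. This list was chosen with earlier results of these data known. The neighbouring feeding peptides Agrp and Npy of the arcuate list were at 2.74 (SE 1.14) and 1.96 (SE 0.94) for diet, both with an edgeR adjusted p of 0.986, in a list of 14 tested genes with 7 higher and 7 lower. Agrp was 1.39, 1.72, 12.8 and 65.0 CPM in aDR mice 62, 64, 65 and 67, against 1.27 to 6.20 CPM in the AL mice.

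The peptides fell into 2 kinds by tissue, given as a description because they were chosen as hypothalamic. Oxt, Avp, Ghrh, Hcrt and Pmch had medians under 1 CPM in all 15 other tissues. Some libraries lay above that: Oxt was 14.7 CPM in thalamus of aDR mouse 64, and cerebellum of AL mouse 63 held Pmch at 13.5, Avp at 3.89, Hcrt at 3.34 and Oxt at 2.57 CPM. Avp reached 8.65 CPM in pons and 4.20 CPM in choroid plexus of YMP mouse 77, and 5.42 CPM in caudate putamen of aDR mouse 61. The second highest Avp libraries of pons and caudate putamen were at 6.74 and 4.67 CPM. The next highest median was 0.132 CPM for Oxt (visual cortex), 0.525 for Avp (entorhinal cortex), 0.316 for Ghrh (pons), 0.033 for Hcrt (medulla) and 0.911 for Pmch (pons), against 104, 66.5, 7.68, 228 and 864 CPM in hypothalamus. Within mice, hypothalamus was above the other tissue in 196 of 196 pairs for Pmch and Ghrh and in 195 of 196 for Oxt, Hcrt and Gal. The exceptions were a visual cortex library above aDR mouse 62 for Oxt, thalamus above PBS mouse 72 for Hcrt, and pons above hypothalamus in aDR mouse 67 for Gal. Avp was higher in hypothalamus in 190 of 196 pairs, and all 6 exceptions were aDR mouse 62.

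Crh, Trh and Gal were present elsewhere. Crh had a median of 13.4 CPM in medulla, 13.1 in visual cortex, 10.1 in olfactory bulb and 6.61 in motor cortex, all above the 5.00 CPM of hypothalamus, and hypothalamus was higher in 141 of 196 pairs. Medulla was the most variable of these, from 1.63 to 160 CPM over 16 libraries, while visual cortex kept within 9.29 to 16.9 CPM over 15. Neighbours in that order overlapped in range. Trh had a median of 92.4 CPM in olfactory bulb, within 65.5 to 103 CPM, beside 87.2 CPM in hypothalamus.

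Trh was otherwise uneven between libraries of a region. In entorhinal cortex it ran from 0.192 to 497 CPM with a median of 28, and in medulla from 0.227 to 186 CPM with a median of 35.9. Choroid plexus had a median of 10.4 CPM and caudate putamen of 5.86 CPM. Gal, at 96.9 CPM in hypothalamus, had medians of 16 in thalamus, 15.1 in olfactory bulb and 12.1 in medulla.

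**Figure D4:**
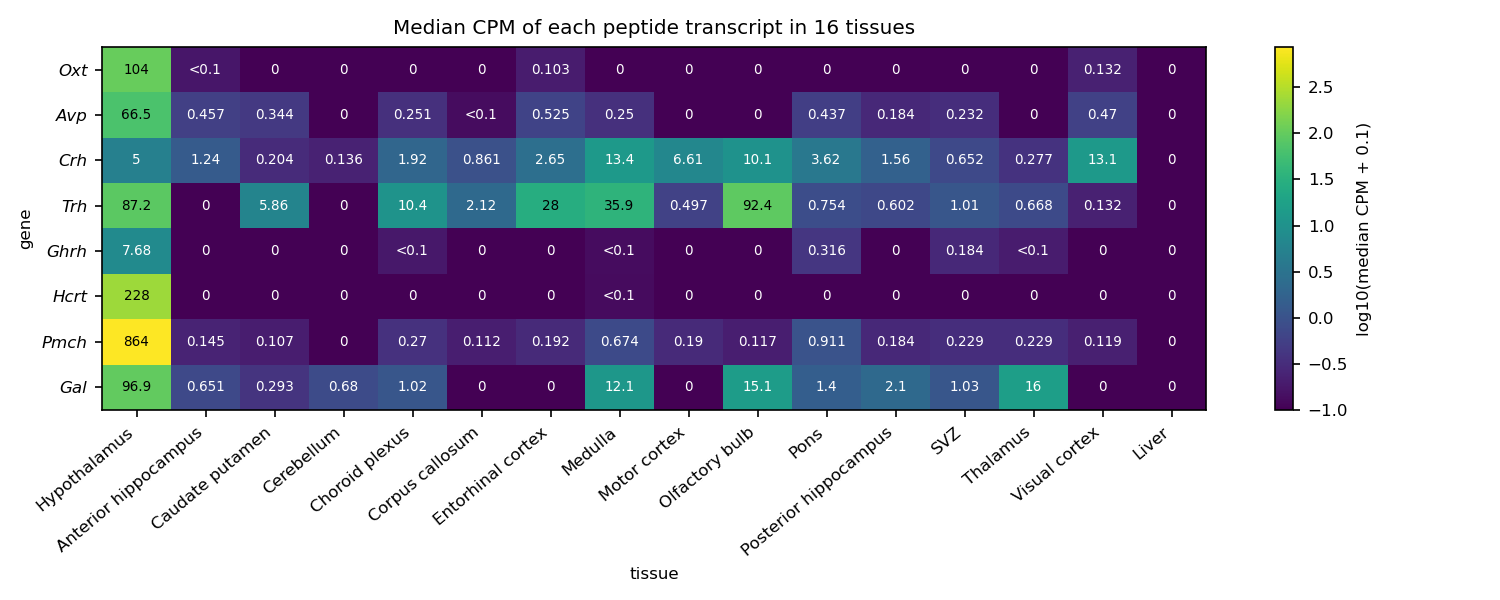
Median CPM of the 8 transcripts (rows) in 16 tissues (columns), with colour for log10 of the median CPM plus 0.1 and the median printed in each cell. The medians of Oxt, Avp, Ghrh, Hcrt and Pmch were under 1 CPM outside hypothalamus, whereas Crh reached 13.4 CPM in medulla and Trh 92.4 CPM in olfactory bulb.

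Treatment was compared in each of these tissues as in hypothalamus. For diet, 25 gene and region tests of the 8 peptides passed the filter and 0 were called, against 0.0658% of all such tests. For plasma there were 24 tests and 0 called, against 0.0136%. DESeq2 called 0 in both as well, but gave no adjusted p for some of them, Crh in olfactory bulb with diet, Gal in pons and Crh in medulla with plasma included. By region, the share of genes called for diet was 0.22% in olfactory bulb, 0.251% in motor cortex, 0.202% in visual cortex, 0.0524% in cerebellum, 0.0215% in corpus callosum, 0.0212% in subventricular zone, 0.0146% in caudate putamen, 0.00714% in medulla and 0.00707% in choroid plexus, and 0% in the other brain regions. For plasma it was 0.184% in corpus callosum, 0.00738% in cerebellum and 0% in the other brain regions. At an unadjusted p under 0.05, edgeR's test marked 3 of the 25 for diet and 5 of the 24 for plasma, which are given here, against 6.51% and 6.24% of all gene and region tests. Among those for plasma, Pmch in medulla and Trh in the subventricular zone could pass the filter through the YMP group alone. The plasma count is therefore a description. In liver none of the 8 passed the filter, where 0.22% of genes were called.

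Crh in olfactory bulb was the smallest p of these. It was 9.49, 10.7, 10.7 and 12.7 CPM in the AL mice, and 7.90, 6.88, 5.95, 6.05 and 9.28 CPM in the aDR mice. All 5 aDR libraries lay below all 4 AL libraries, and 5.3% of genes in olfactory bulb had groups without overlap. The difference was -0.56 (SE 0.15, p 0.00195, edgeR adjusted p 0.165), which did not pass the adjusted threshold. In the plasma experiment Crh in olfactory bulb was 8.67, 13.8, 12.1 and 9.37 CPM with PBS and 12.1, 13.5 and 16.3 CPM with YMP, which overlapped at a difference of 0.42 (SE 0.16, edgeR adjusted p 0.50).

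Medulla held 3 of the plasma tests with low unadjusted p. Trh was 1.32, 29.4, 0.573 and 0.227 CPM in the PBS mice and 186, 8.47 and 58.4 CPM in the YMP mice, at a difference of 4.38 (SE 1.26, edgeR adjusted p 0.447). PBS mouse 76 lay inside the YMP range and the others below it. Crh was 3.98, 25.5, 5.16 and 4.32 CPM against 107, 7.75 and 11.9 CPM, at 2.43 (SE 0.93, edgeR adjusted p 0.492), and overlapped in the same mouse. Pmch was at most 0.765 CPM with PBS and 1.03 to 1.67 CPM with YMP, at 1.29 (SE 0.47, edgeR adjusted p 0.483), and its groups did not overlap, as for 8.07% of genes in medulla. As its YMP libraries were the highest, Pmch could pass the filter on low counts through that group alone. Its test and its lack of overlap are therefore a description. Hoxb5, a marker of the caudal brainstem, ran from 0.227 to 15.9 CPM in those PBS libraries and from 32.6 to 94.3 CPM in the YMP libraries, and its part in the 3 results was not tested.

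The remaining tests concerned Trh and Gal. Trh in caudate putamen was 5.73, 5.99, 4.62 and 4.46 CPM in the AL mice and 9.51, 9.41, 11.1, 5.02 and 6.55 CPM in the aDR mice, at 0.69 (SE 0.23, edgeR adjusted p 0.618), with mouse 65 inside the AL range. Trh in the subventricular zone was at most 1.0 CPM with PBS and 2.16, 2.76 and 1.39 CPM with YMP, at 1.34 (SE 0.50, edgeR adjusted p 0.307). Its groups did not overlap, as for 14.6% of genes there, and its counts were 0 to 26. Trh could thus pass the filter there through the YMP group alone, and its test and lack of overlap are a description. Gal in pons was 468 CPM in aDR mouse 67 and between 0.302 and 6.22 CPM in the other 4 aDR mice, within or around the 0.793 to 4.21 CPM of the AL mice. The fitted 5.58 (SE 2.22, edgeR adjusted p 0.997) thus came with that library. In it Prl was at 151400 CPM and Gh at 32500 CPM, both transcripts of the anterior pituitary. The part of pituitary tissue in the Gal value was not tested.

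**Figure D5:**
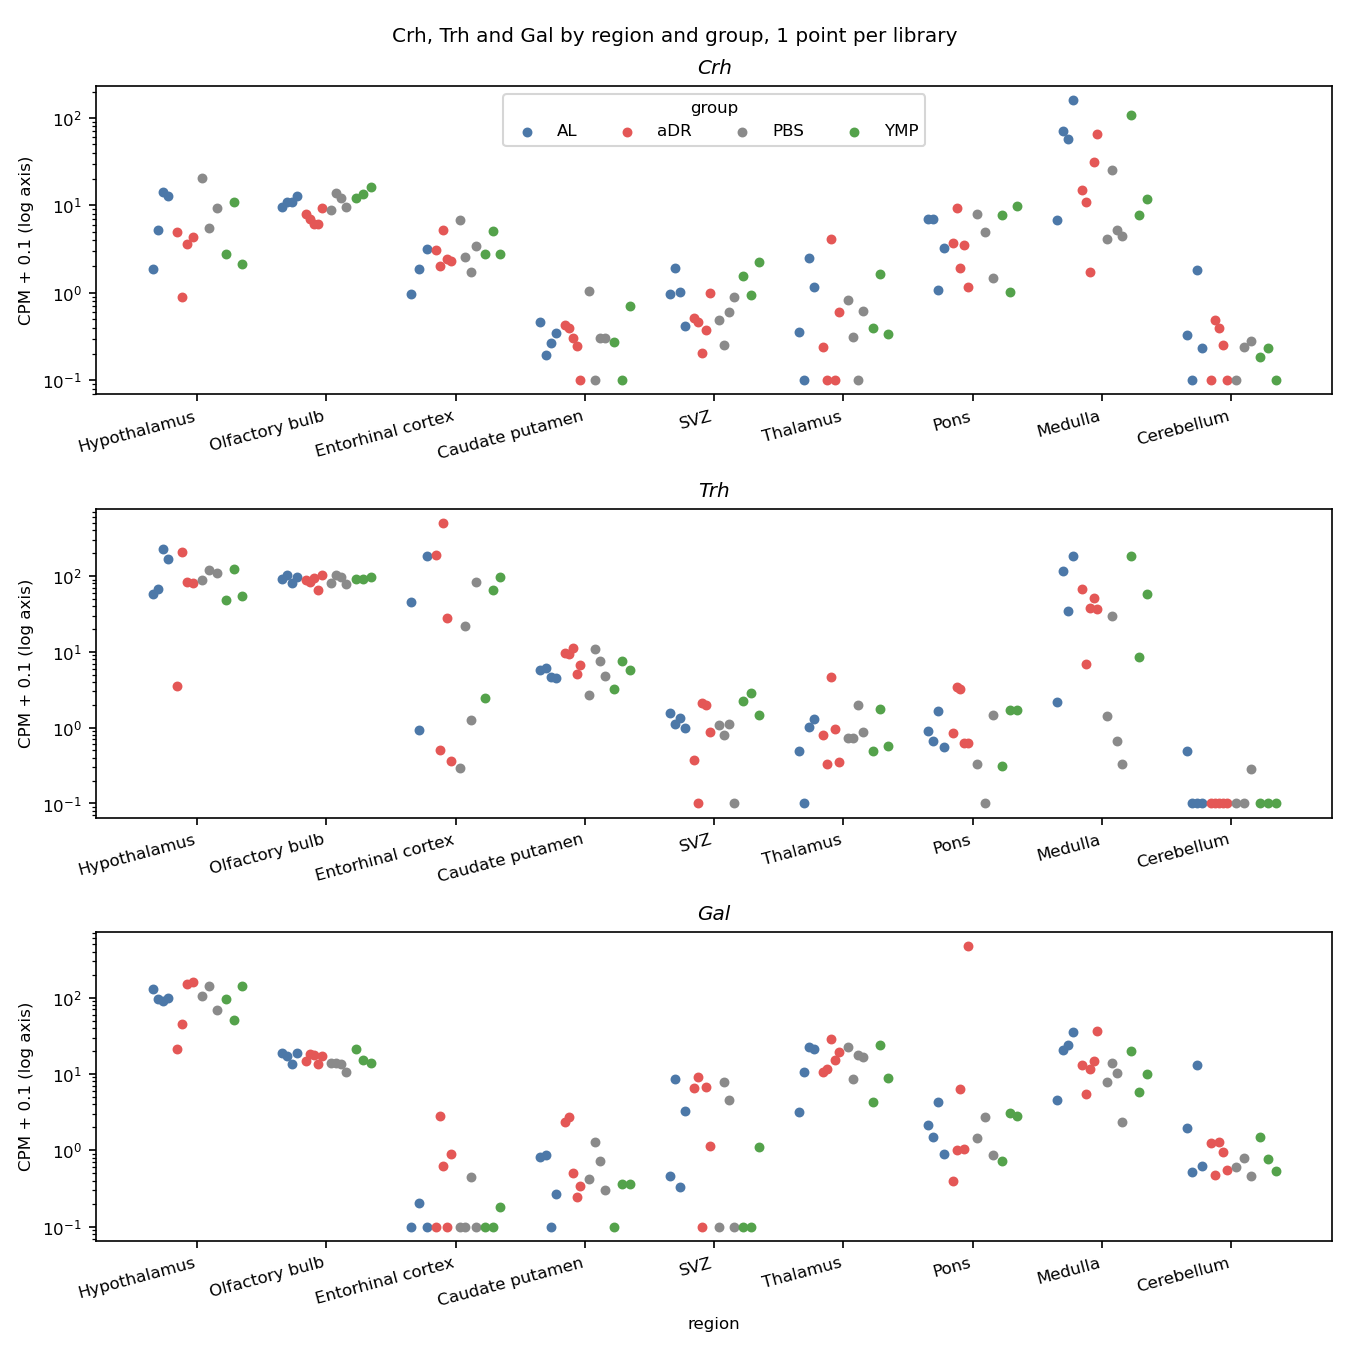
CPM plus 0.1 of Crh, Trh and Gal in 9 brain regions on log axes, with 1 point per library and colour for the group. Crh in olfactory bulb was lower in the 5 aDR than in the 4 AL libraries without overlap, Trh in medulla ran from 0.227 to 186 CPM, and 1 pons library reached 468 CPM for Gal.

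Averaged over the brain regions, with 1 value per mouse from a fit of region and mouse, Crh had the smallest diet p of the 8. The difference was -0.39 (SE 0.12, interval -0.67 to -0.11, p 0.0113, limma adjusted p 0.173), which did not pass. Its values on the log2 scale were 1.27, 1.32, 1.87 and 1.59 in the AL mice and 1.10, 1.22, 0.915, 1.14 and 1.24 in the aDR mice, without overlap, as for 8.3% of genes. For comparison, 144 of 15616 genes (0.922%) passed and 0 of the 8 peptides. Oxt, Avp, Ghrh, Hcrt and Pmch had medians under 1 CPM in all 15 other tissues. Their values per mouse are therefore largely averages near the floor and not levels across the brain. No hypothalamus library entered the values of aDR mouse 61 and PBS mouse 76. In the plasma experiment 0 of 15768 genes passed by limma (0%, with 1275 at an unadjusted p under 0.05), and Trh was at 0.64 (SE 0.30, interval -0.07 to 1.35, limma adjusted p 0.644) and Pmch at 0.39 (SE 0.18, interval -0.04 to 0.81, limma adjusted p 0.644).

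These brain-wide values depended on the fit. The alternative was a voom fit that takes each brain library, 131 for diet and 98 for plasma, as an observation. The mouse enters as a block with 1 correlation for all genes, so the p of that fit do not rest on 1 value per mouse. Oxt and Hcrt had a median of 0 CPM in 12 and 14 of the other tissues, where many of their values lay at the floor. With all brain libraries in a voom fit and the mouse as a replicate block, Crh was at -0.73 (limma adjusted p 0.0349), Oxt at -3.23 (1.79e-05), Avp at -1.99 (0.0141) and Pmch at -0.81 (0.0227) for diet, and 1474 genes passed. For plasma, Oxt was at -2.98 (limma adjusted p 5.35e-05), Avp at -3.69 (1.3e-05), Hcrt at 4.54 (5.35e-05) and Pmch at 3.03 (0.00432), and 487 genes passed. In the values per mouse, Oxt was at -0.23 (SE 0.24) and Avp at 0.06 (SE 0.19) for diet, and Hcrt was at 0.30 (SE 0.20) for plasma. Of the 10 glucocorticoid response genes, 10 were higher and 5 passed in the per-mouse diet comparison, where 0.922% of all genes passed. Plin4 was at 2.03 (SE 0.25, limma adjusted p 0.0131). In the per-mouse plasma comparison 8 of the 10 were higher, 2 were lower and 0 passed. The list was chosen with earlier results of these data known, so these counts are a description.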

How the data were processed

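Libraries were made without strand marking by Smart-Seq2 and Nextera XT, per the labels' protocols. The authors deposited 1 table of raw read counts per gene; the submitters' processing notes name Trim Galore 0.3.7, STAR 2.5.3a, DESeq2 and GRCm38, and the counting program and annotation are not given in the sources used here. Genes were matched by symbol to GENCODE M21 (GRCm38) and, for promoters, RefSeq (GRCm38.p6), where 7 of the 8 had an entry.

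Counts of all 21076 genes were filtered (filterByExpr, minimum count 10), scaled by TMM and tested by edgeR 4.0.16 quasi-likelihood fits per tissue and experiment, with Benjamini-Hochberg adjustment over all genes tested and a threshold of 0.05. Printed CPM are on 1 TMM scale over the 238 libraries (0.606 to 32.4 M counts, median 8.44). Brain-wide tests used limma 3.58.1 on 1 value per mouse (log2 CPM, prior count 2). DESeq2 1.42.0, other scalings and filters, and leaving out each mouse were alternatives. The fits were tested on simulated data with known changes. No 2 libraries of a group agreed within sampling noise (lowest chi-square per degree of freedom 3.67 over 18 pairs).

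Named genes were the 8 peptides, the 2 genes with the smallest p of each list where a sentence needed them, and the 2 most alike by Pearson's r. Parpbp, Six3, Barhl1, Lhx1, Gsx1, Otp, Sim1, Pou3f2, Arnt2, Dlx1, Rax, Bsx, Sox14, Hmx3, Hoxb5 and the pituitary genes were singled out after their values were seen. The peptides and gene lists were chosen with earlier results of these data known. Some results that the rules would name are not reported here.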

Additional observations from a re-analysis of the deposited data

Results flagged for a closer look

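The 40 sets examined were each 1 peptide in 1 group of 4 or 5 mice, and 4 held a mouse far from the others. Chance would flag about 2 if the sets were independent. The sets share mice and correlated peptides, so 4 beside 2 is a description. In hypothalamus of the aDR group, mouse 64 had Oxt at 425.4 CPM against 0.199 to 47.2 CPM in the other 3, and Avp at 662 CPM against 0.597 to 7.76 CPM. In the AL group, mouse 66 had Hcrt at 926 CPM against 127 to 200 CPM. In the brain-wide values, Hcrt was at -1.53 on the log2 scale in aDR mouse 64 against -1.27 to -1.23 in the other aDR mice. Hcrt had a median of 0 CPM in 14 of the tissues outside hypothalamus, so these values lie near the floor.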

How the results depend on the processing

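Under RLE scaling, DESeq2 and no filter, the 8 peptides kept their direction and their side of the threshold in both hypothalamus comparisons, except that DESeq2 gave no adjusted p for Oxt with plasma. DESeq2 called 11 genes for diet and 33 for plasma, against 0, and the cause was not tested. No paired analysis was possible because the groups compared in hypothalamus share no mouse numbers. Without aDR mice 62 and 64, chosen after seeing the data, Gal turned to 0.60.

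Across the brain, libraries of the same mouse deviated together weakly, with a mean r of 0.0443 for diet and 0.0867 for plasma. For libraries of different mice the mean r was -0.0055 and -0.0145. With the mouse as a replicate block, 1474 genes passed for diet and 487 for plasma, and without a block 2760 and 2629. For diet, Avp turned to -1.99 with the block and -1.69 without, Trh to -0.38 and -0.33, and Gal to -0.16 and -0.11. For plasma, Ghrh turned to 0.69 and 0.48, Oxt to 0.037 with a prior count of 0.5, and Avp to 0.055 without hypothalamus. The causes were not tested. Called pairs, 5 in all libraries, numbered 3 within the dietary and 4 within the plasma libraries, 6 without centring on group means (Ghrh and Pmch added) and 6 without mice 62 and 72 (Avp and Gal added, negative).

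Leaving out 1 mouse at a time gave 0 to 1 called genes for plasma (1 without PBS mouse 72), 0 to 1 for the difference between experiments (1 without YMP mouse 81), 14 to 163 for brain-wide diet (14 without AL mouse 66) and 0 to 1 for brain-wide plasma (1 without PBS mouse 80). The ranges that crossed 0 were, for diet, Avp -6.18 to 0.30, Ghrh -0.42 to 0.39, Hcrt -0.91 to 1.04 and Gal -0.52 to 0.21. For plasma they were Ghrh -0.066 to 1.01 and Gal -0.53 to 0.16. For the difference between experiments they were Oxt -3.84 to 3.25, Avp -4.86 to 5.73, Crh -0.76 to 1.08, Trh -0.69 to 0.63, Ghrh -0.92 to 0.15 and Gal -0.37 to 0.39. Between controls they were Oxt -0.68 to 0.47, Avp -0.65 to 1.20, Crh -0.13 to 0.92, Trh -0.49 to 0.15, Ghrh -0.91 to 0.15 and Gal -0.24 to 0.27. Brain-wide they were, for diet, Avp -0.095 to 0.20, Trh -0.16 to 0.31, Hcrt -0.057 to 0.040 and Gal -0.037 to 0.36, and for plasma Oxt -0.23 to 0.039, Avp -0.62 to 0.060 and Ghrh -0.084 to 0.032.

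Groups of 3 or 4 mice limit the precision for Oxt, Avp, Hcrt and Pmch. Counts of 2 to 6 set the level of Oxt, Avp and Hcrt in the lowest libraries.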
